A study of Mus musculus with 18 samples.

Results

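The genes of cholesterol synthesis, uptake and efflux were followed in microglia-enriched and whole-brain RNA of mice that had received lipopolysaccharide (LPS) or vehicle. The set was a named list of 31 genes, of which 30 were found in the data by their symbol and 1 (Msmo1) by its older symbol, among 36172 genes in all. They comprised 17 enzymes of the synthesis pathway, 5 genes of sterol sensing, 4 genes of efflux and its liver X receptors (LXR), 1 gene that regulates uptake, and 4 genes that transport, esterify or modify sterols and membrane lipids. All 31 passed the filter on low counts and were among the 14796 genes tested.

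The animals were Cx3cr1-cre/ERT2+; NuTRAP+ mice of about 3 months, and every animal, controls included, carried both alleles and had been given tamoxifen (Tam) 3–4 weeks before the injection. Tam-activated Cre under the Cx3cr1 promoter switches on a ribosomal protein tagged with EGFP, so that translating ribosome affinity purification (TRAP) with an anti-GFP antibody retrieves RNA from Cx3cr1-expressing cells, in the brain mainly microglia but also macrophages at its borders. RNA from the lysate before the pulldown is called input and RNA from the pulldown the positive fraction. By intraperitoneal injection the mice received LPS at 5 mg/kg, which is part of the bacterial outer membrane and activates Toll-like receptor TLR4, or its vehicle phosphate-buffered saline (PBS), and brain was taken 24 h later. Of 9 animals, 5 received LPS (4 female, 1 male) and 4 received PBS (2 female, 2 male), so that sex was not balanced between treatments. After the nearly empty input library of animal 271 (1252 counts) was left out, the groups held 4 libraries each in Input PBS, Input LPS and Positive PBS and 5 in Positive LPS, with library totals of 22968939 to 35123345 counts.

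Cells make cholesterol from acetyl-CoA through mevalonate and squalene. When sterols in the endoplasmic reticulum fall, SCAP escorts the transcription factors SREBP1 and SREBP2 (encoded by Srebf1 and Srebf2) to the Golgi apparatus for cleavage, and SREBP2 then raises the synthesis enzymes. When sterols are plentiful, INSIG proteins hold SCAP back, and the oxysterol receptors LXR alpha and LXR beta (Nr1h3 and Nr1h2) raise the efflux transporters ABCA1 and ABCG1. In the brain cholesterol is made locally, since lipoproteins of the blood do not cross the blood-brain barrier, and microglia take it up from myelin and dying cells and export it again.

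The check of the fractions came first. All 8 microglia markers listed were higher after TRAP than in input in both PBS and LPS animals, with median log2 differences of 4.22 with PBS and 4.03 with LPS. The 6 border macrophage markers were also all higher there (medians 4.04 and 3.44), and the 6 oligodendrocyte markers were all lower (medians -2.10 and -1.78). None of the 6 neuron markers was called in either comparison (medians 0.03 and -0.17), so RNA of other brain cells was still present in the positive fraction. Endothelial markers were enriched by TRAP as well, with 5 of 6 higher in both treatments (medians 1.498 and 0.754). Of the 7 astrocyte markers 4 were lower and 1 higher in both treatments, and of the 5 monocyte markers tested 2 were higher and 2 lower with PBS, and 1 higher and 2 lower with LPS. These are bulk RNA values, in which fewer cells of a type and less RNA per cell cannot be told apart.

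A gene was called where edgeR's adjusted p was under 0.05 and the log2 fold change was beyond 0.32 in either direction. Values below are normalised counts, that is counts divided by a size factor for the depth of the library. The libraries are given in the order of animals 268, 272, 273 and 506 for PBS, 266, 267, 270 and 507 for Input LPS, and 266, 267, 270, 271 and 507 for Positive LPS.

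With LPS, 10 of the 31 genes were called in the positive fraction (6 higher, 4 lower) and 8 in input (2 higher, 6 lower). Across all genes tested, 33.8% were called in the positive fraction (19.0% higher and 14.9% lower) and 12.4% in input (7.16% higher and 5.26% lower). The share of the 31 genes called in the positive fraction, 32.3%, was thus near that of all genes, while the share in input was 25.8%. Hmgcs1, Cyp51 and Srebf2, which belong to synthesis and its control, fell in both fractions, and Abca1 and Ch25h, which belong to efflux and oxysterol production, rose in both. Whether the changes in the positive fraction came from microglia or from other cells in that fraction was not tested. A further 5 genes were called in the positive fraction and not in input (Sqle lower, and Lss, Ebp, Soat1 and Lpcat3 higher), and 3 in input and not in the positive fraction (Mvd, Nsdhl and Dhcr7 lower). The groups did not overlap for 7 of the 31 genes in the positive fraction and for 10 in input, against 30.1% and 24.2% of all genes.

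**Figure D1:**
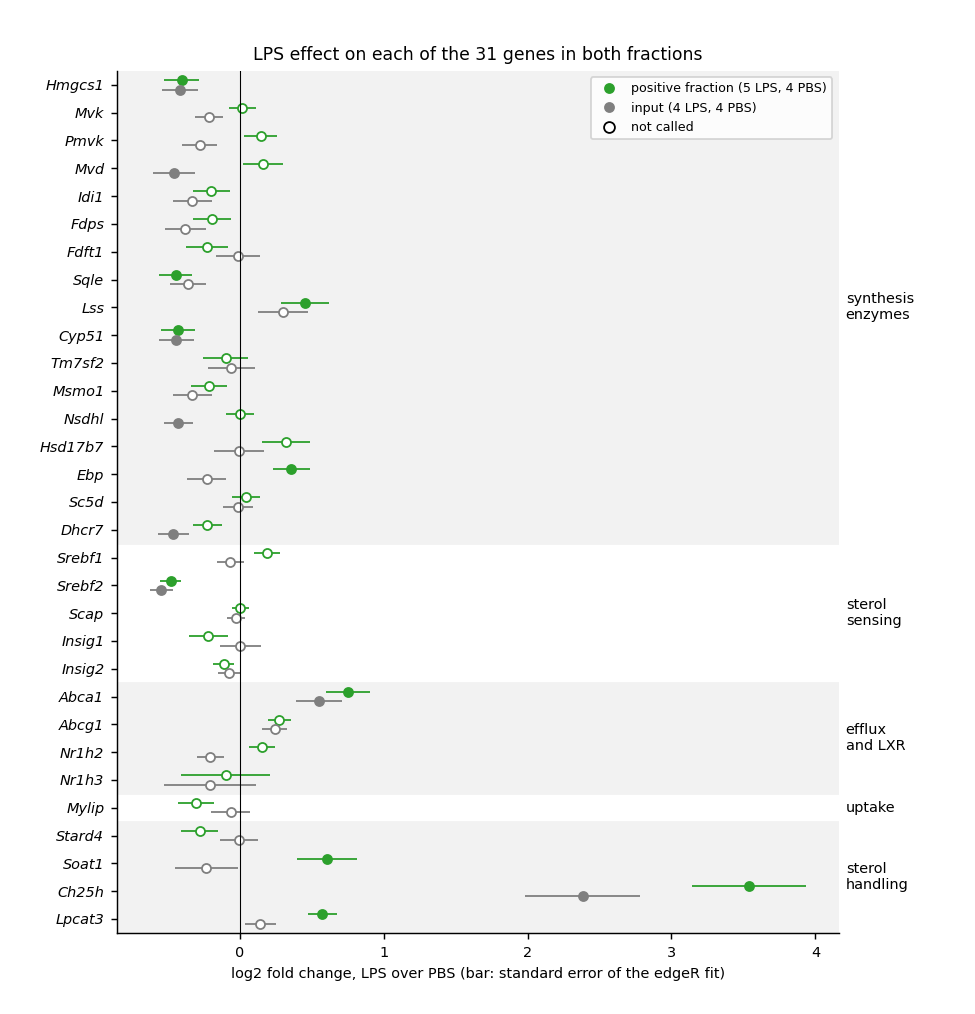
Log2 fold change of LPS over PBS for each of the 31 genes, with the standard error of the edgeR fit as bars, in the positive fraction (green) and input (grey). Filled points were called. Most synthesis enzymes sit left of 0 in input and on both sides of 0 in the positive fraction, and Ch25h lies farthest to the right in both.

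The 5 genes called in the same direction in both fractions are shown with the 250 bases before their RefSeq transcription start, because this window is where SREBP and its partner NF-Y are known to bind in genes of the pathway. The windows are from GRCm38.p6 (mm10) and read 5′ to 3′ in the direction of the gene: chr13:119690101-119690350 (+ strand) for Hmgcs1, chr5:4104698-4104947 (- strand) for Cyp51, chr15:82147019-82147268 (+ strand) for Srebf2, chr4:53159896-53160145 (- strand) for Abca1 and chr19:34475149-34475398 (- strand) for Ch25h. Capitals mark TCACNCCA, a spelling of the core of a sterol regulatory element, and CCAAT, the letters that NF-Y binds, on either strand (CCAAT reads ATTGG on the other strand). Only these exact letters are marked, so a window without TCACNCCA may still hold an element spelled otherwise.
Hmgcs1: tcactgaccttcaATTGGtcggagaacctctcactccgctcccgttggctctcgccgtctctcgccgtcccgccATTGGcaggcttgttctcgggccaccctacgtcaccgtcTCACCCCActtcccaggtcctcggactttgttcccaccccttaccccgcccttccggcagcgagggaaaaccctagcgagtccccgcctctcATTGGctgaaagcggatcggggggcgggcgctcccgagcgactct
Cyp51: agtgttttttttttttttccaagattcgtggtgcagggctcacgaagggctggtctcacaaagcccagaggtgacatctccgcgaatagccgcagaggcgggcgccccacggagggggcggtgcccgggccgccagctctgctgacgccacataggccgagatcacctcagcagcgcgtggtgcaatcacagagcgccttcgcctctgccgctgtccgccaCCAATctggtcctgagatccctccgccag
Srebf2: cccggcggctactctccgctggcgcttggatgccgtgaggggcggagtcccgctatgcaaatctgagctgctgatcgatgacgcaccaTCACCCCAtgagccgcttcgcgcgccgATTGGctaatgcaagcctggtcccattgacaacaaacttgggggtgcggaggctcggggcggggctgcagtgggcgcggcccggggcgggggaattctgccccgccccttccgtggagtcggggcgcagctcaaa
Abca1: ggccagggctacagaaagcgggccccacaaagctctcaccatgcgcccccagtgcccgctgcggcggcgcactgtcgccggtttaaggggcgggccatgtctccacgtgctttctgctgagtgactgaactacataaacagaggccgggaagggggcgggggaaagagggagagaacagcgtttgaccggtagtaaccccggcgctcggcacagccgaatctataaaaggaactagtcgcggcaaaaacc
Ch25h: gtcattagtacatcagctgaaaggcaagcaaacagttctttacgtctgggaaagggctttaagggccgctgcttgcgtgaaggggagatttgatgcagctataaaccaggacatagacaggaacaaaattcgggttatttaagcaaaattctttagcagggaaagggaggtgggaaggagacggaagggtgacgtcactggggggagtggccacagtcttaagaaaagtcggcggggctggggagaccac
In this window Hmgcs1 held TCACNCCA once, from 137 to 130 bases before the start, and CCAAT in 3 places. Srebf2 held TCACNCCA from 162 to 155 bases before the start and CCAAT from 135 to 131 bases before it, Cyp51 held CCAAT from 29 to 25 bases before the start, and Abca1 and Ch25h held neither. Windows were at hand for 26 of the 31 genes. TCACNCCA was found for 3 of these (Hmgcs1, Msmo1 and Srebf2), and for 4.2% of all 27025 genes with windows of the same length. Sterol regulatory elements spelled otherwise are not in this count. CCAAT was found for 21 of the 26 genes (80.8%) and for 37.5% of all genes, with no overlap between the letters of the 2 motifs. CACGTG was found for 6 of the 26 genes (23.1%) and for 6.86% of all genes. TCACNCNAC was found for 2 (7.69%) against 2.65%, and TCACNCCAC for 1 (3.85%) against 1.22%. The 26 genes had 35 windows and the 27025 genes had 32851, so the 26 had more windows per gene. The shares were not adjusted for this. Of 6 spellings searched on both strands, the exact pair of AGGTCA half-sites 4 bases apart that LXR binds was found for none of the 26 genes and for 0.0148% of all genes. Letters found in so few genes would be missing from most sets of 26, so this search cannot tell whether LXR sites were present. Pairs of half-sites with other letters were not searched. A match of letters describes the sequence and does not show that a factor was bound.

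In the early steps of synthesis, from acetyl-CoA to squalene, Hmgcs1 was the gene that changed in both fractions. Hmgcs1 (chr13:119690462-119708077, gene ID 208715) encodes the synthase that makes HMG-CoA, the precursor of mevalonate. Its normalised counts were 6585, 8733, 7219 and 7104 in Input PBS and 5536, 5344, 6253 and 5089 in Input LPS. They were 5999, 8094, 6877 and 7369.7 in Positive PBS and 4246, 5058, 6363, 6251 and 4866 in Positive LPS. Every Input LPS library lay below every Input PBS library, whereas in the positive fraction animals 270 and 271 with LPS reached above animal 268 with PBS. The log2 fold change was -0.42 (adjusted p 0.0354, SE 0.13) in input and -0.40 (adjusted p 0.0121, SE 0.12) in the positive fraction. Leaving out animal 272 from Positive PBS ended the call in the positive fraction, and in input 6 of the 17 fits with 1 library left out lost it. The input call of Hmgcs1 was also lost with sex as a covariate. Its calls in both fractions were lost without animals 506 and 507 and with female animals only.

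Mvd (chr8:122433596-122443422) encodes the decarboxylase that makes isopentenyl pyrophosphate, the building block of all isoprenoids. It lay at 517, 792, 636 and 519 in Input PBS and at 407, 449, 522 and 417 in Input LPS, with animal 270 just above the lowest PBS values. Its positive libraries held 481, 685, 601 and 603 with PBS and 576, 688, 761, 650.3 and 634 with LPS. Mvd fell in input, at -0.46 (adjusted p 0.0418, SE 0.14), and lay at 0.16 (adjusted p 0.361, SE 0.14) in the positive fraction, where it was not called. The input call of Mvd was lost in 7 of the 17 fits with 1 library left out, those without Input LPS animals 266, 267 and 507, Input PBS animals 272 and 273, and Positive PBS animals 273 and 506. Over the 17 fits its log2 fold change ran from -0.535 to -0.314, and the call was also lost with no filter on low counts (adjusted p 0.0533) and with sex as a covariate (adjusted p 0.0603).

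The other early enzymes did not pass the test in either fraction. Mvk and Pmvk phosphorylate mevalonate, Idi1 isomerises isopentenyl pyrophosphate, Fdps joins isoprenoid units into farnesyl pyrophosphate, and Fdft1 joins a pair of farnesyl units to squalene. In input their log2 fold changes were -0.21 for Mvk, -0.28 for Pmvk, -0.33 for Idi1, -0.38 for Fdps and -0.013 for Fdft1, with adjusted p from 0.0848 to 0.967. In the positive fraction the values were 0.017 for Mvk, 0.15 for Pmvk, -0.20 for Idi1, -0.19 for Fdps and -0.23 for Fdft1. In the main fit the adjusted p in the positive fraction was 0.237 for Idi1 and 0.223 for Fdft1. Each was called lower there in 1 of the 31 alternatives, without animals 270 and 271, at -0.39 (adjusted p 0.017) and -0.40 (adjusted p 0.0356). That alternative was chosen after seeing the data. In Positive LPS these animals held the 2 highest values of Idi1 (1539 and 1692) and of Fdft1 (2615 and 2198). Leaving them out therefore lowers the fold, and these calls are no further support for a fall.

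From squalene to lanosterol the enzymes moved apart. Sqle (chr15:59315092-59331193) encodes squalene epoxidase, which puts the oxygen on squalene and is a rate-controlling step after mevalonate. Sqle lay at 1087, 1630.1, 1221 and 1201 in Positive PBS and at 906, 798, 961, 975 and 1079 in Positive LPS, and all LPS libraries lay below all PBS libraries. In input the values were 1391, 1835, 1452 and 1534 with PBS and 1318, 1161, 1095 and 1270.4 with LPS, again without overlap. Sqle fell in the positive fraction, at -0.45 (adjusted p 0.00547, SE 0.12), while in input it missed the threshold, at -0.36 (adjusted p 0.0607, SE 0.12). Its input fold passed in 4 of the 31 alternatives, among them the animal as a block, at -0.35 (adjusted p 0.0472). The call of Sqle in the positive fraction was lost in 3, at -0.31 (adjusted p 0.0349) without Positive PBS animal 272, at -0.31 (adjusted p 0.0211) without both libraries of this animal, and at -0.22 (adjusted p 0.175) with female animals only.

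Lss (chr10:76531627-76553934) encodes lanosterol synthase, which closes the squalene epoxide into the sterol ring system. It rose in the positive fraction from 507, 449, 424 and 474 with PBS to 686, 507, 664, 813 and 507 with LPS, and its lowest LPS value lay less than 1 count above its highest PBS value. In input the values overlapped, with 555, 471, 389 and 627 in PBS and 566, 526, 817 and 608 in LPS, the highest being animal 270. The log2 fold changes were 0.45 (adjusted p 0.0356, SE 0.17) in the positive fraction and 0.30 (adjusted p 0.27, SE 0.17) in input. The call in the positive fraction was lost in 6 of the 17 fits with 1 library left out, with sex as a covariate, at 0.35 (adjusted p 0.0541), and without animals 270 and 271, at 0.30 (adjusted p 0.125).

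The steps from lanosterol to cholesterol held the remaining calls among the enzymes. Cyp51 (chr5:4080674-4104697) encodes lanosterol demethylase. It was measured at 1649, 2426, 1904 and 1949.6 in Input PBS and at 1448, 1493, 1576 and 1319.5 in Input LPS. After TRAP it was measured at 1559, 2078, 1657 and 1945 with PBS and at 1069, 1409, 1476, 1393 and 1376 with LPS. All LPS libraries lay below all PBS libraries in both fractions. Cyp51 fell in both, at -0.44 (adjusted p 0.0198, SE 0.12) in input and -0.43 (adjusted p 0.00631, SE 0.12) in the positive fraction. The input call ended without Input PBS animal 272, at -0.33 (adjusted p 0.0816), and without Input LPS animal 507, at -0.40 (adjusted p 0.0643).

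Nsdhl (chrX:72918521-72958528) and Dhcr7 (chr7:143823167-143848410) encode a sterol dehydrogenase of the demethylation steps and the reductase that makes cholesterol from its immediate precursor. Nsdhl lay at 511, 623, 514 and 595 in Input PBS and at 399.8, 392, 445 and 432 in Input LPS, without overlap. After TRAP it lay at 482, 612, 529 and 512 with PBS and 472, 566, 559, 541 and 532 with LPS, which overlapped throughout. The log2 fold change of Nsdhl was -0.43 (adjusted p 0.00896, SE 0.10) in input and 0.00074 (adjusted p 0.996, SE 0.098) in the positive fraction, where its sign turned in some alternatives. Dhcr7 lay at 869, 1094, 893 and 932 in Input PBS and at 682, 732, 654 and 681 in Input LPS, without overlap. Its positive libraries held 765, 991, 754 and 909 with PBS and 630.4, 754, 752, 709.5 and 812 with LPS. Dhcr7 fell in input, at -0.46 (adjusted p 0.00679, SE 0.11), and was not called in the positive fraction, at -0.22 (adjusted p 0.086, SE 0.10).

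Ebp (chrX:8185331-8193512) encodes the isomerase that shifts a double bond in the sterol ring. It lay at 639, 703, 717 and 821 in Positive PBS and at 926, 1041, 818, 853 and 979 in Positive LPS, where animal 270 with LPS was below animal 506 with PBS. In input it lay at 435, 543, 531 and 460 with PBS and at 434, 515, 307 and 423 with LPS, animal 270 being the lowest. Ebp rose in the positive fraction, at 0.36 (adjusted p 0.0338, SE 0.13), and was not called in input, at -0.23 (adjusted p 0.291, SE 0.14). The rise was lost in 5 of the 17 fits with 1 library left out, without animals 506 and 507, with female animals only and without animal 272. Over the 31 alternatives its log2 fold change ran from 0.29 to 0.46, and its adjusted p reached 0.223. The value of 0.46 (adjusted p 0.00346) was that without animals 270 and 271, which held the lowest Positive LPS values and were picked after seeing the data. Of the last enzymes, Msmo1 (an oxidase of the sterol's methyl groups), Tm7sf2 (a sterol reductase), Hsd17b7 (a ketosterol reductase) and Sc5d (a desaturase), none was called. Their log2 fold changes ran from -0.21 (Msmo1) to 0.32 (Hsd17b7) in the positive fraction, and in input from -0.33 (Msmo1) to -0.0063 (Hsd17b7).

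Over the 17 enzymes together, 5 were called lower and 0 higher in input, where 16 lay below 0 (median -0.33) against 49.4% of all genes (median 0.0038). Lss was the enzyme above 0. In the positive fraction 3 were called lower and 2 higher, a share of 29.4% against the 33.8% of all genes, and 9 of 17 lay below 0 (median -0.098) against 49.3% of all genes (median 0.01). At an unadjusted p under 0.05 there were 11 of the 17 enzymes in input, against 28.1% of all genes, and 6 of 17 in the positive fraction, against 49.2%. The libraries of animal 272, a male given PBS, held the highest value of its group for 15 of the 17 enzymes in input and for 11 in the positive fraction. Without animal 272 the called genes were 6 of 31 in the positive fraction, against 30.0% of all genes, while input had 4, against 9.62%. Mvd, Hmgcs1, Cyp51 and Abca1 then lost their call in input, and Nsdhl and Dhcr7 kept it. With female animals only, 5 of the 31 genes were called in the positive fraction, against 23.3% of all genes, and 1 in input (Srebf2), against 4.95%. Without animals 270 and 271 the positive fraction had 5 of the 31 genes higher and 7 lower, in place of 6 and 4, with 33.8% of all genes called. The alternatives without animal 272 and without animals 270 and 271 were chosen after seeing the data.

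**Figure D2:**
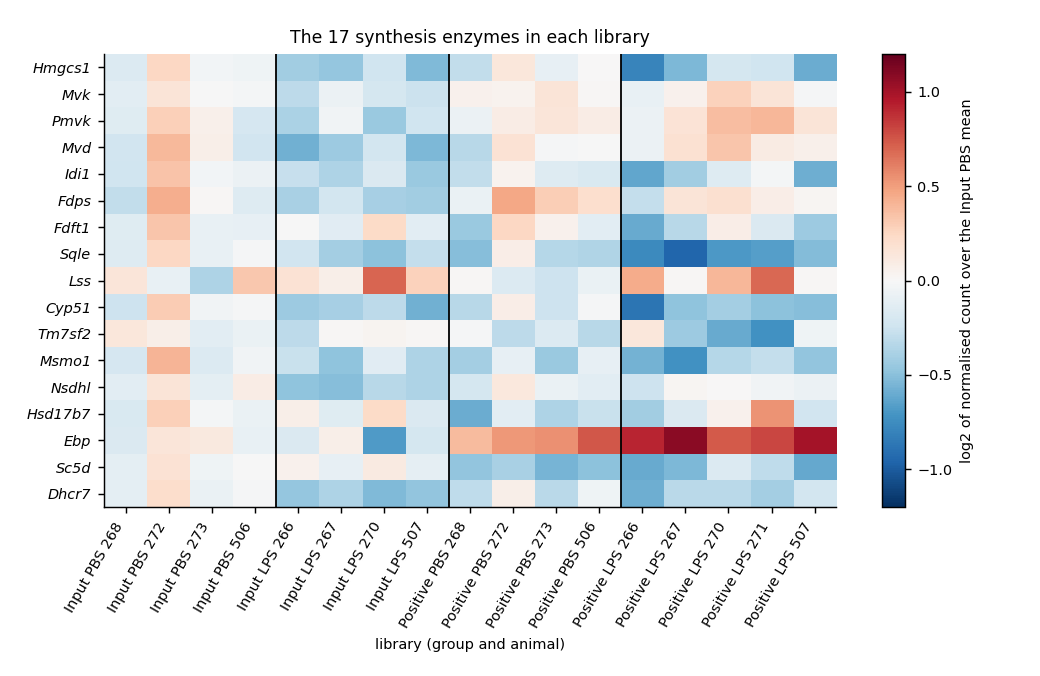
Each of the 17 synthesis enzymes (rows) in each of the 17 libraries (columns, input before positive fraction and PBS before LPS), coloured by log2 of the normalised count over the mean of Input PBS. The column of Input PBS animal 272 holds the highest value of its group for 15 enzymes, the Input LPS columns are mostly blue, and the row of Ebp is red in all positive libraries.

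Markers of oligodendrocytes, which make much of the brain's cholesterol, moved with the input result. All 6 markers lay below 0 with LPS in input and 5 of 6 were called (Opalin -2.01, Mog -1.38, Cnp -0.69, Mbp -0.57 and Mag -0.50). Their summed level was 68050 to 113400 in Input PBS and 47400 to 69970 in Input LPS, so that the groups overlapped slightly, and the highest value was that of animal 272. The sums in the positive fraction were 15580 to 22180 with PBS and 15500 to 19810 with LPS, and 2 of 6 were called lower. The part of these cells in the enzyme levels was not tested.

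Among the genes of sterol sensing, Srebf2 fell in both fractions and the other 4 were not called. Srebf2 (chr15:82147269-82204960, gene ID 20788), the main transcription factor of the synthesis enzymes, lay at 5393, 5836, 5196 and 6098 in Input PBS and at 3893, 3635, 3808 and 4098 in Input LPS. The positive libraries held 4554, 5527, 4443 and 4732 with PBS and 3157, 3379, 3648, 3611 and 3451 with LPS. No LPS library reached a PBS library of its fraction. The log2 fold change was -0.55 (adjusted p 0.000116, SE 0.08) in input and -0.48 (adjusted p 6.35e-05, SE 0.075) in the positive fraction, a level of 0.685 and 0.716 times that in PBS. Srebf2 was called in both fractions in each of the alternatives run, with female animals only at -0.55 and -0.42.

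Srebf1, which serves fatty acid synthesis more and is itself an LXR target, lay at 0.19 (adjusted p 0.108, SE 0.092) in the positive fraction and -0.065 (adjusted p 0.709, SE 0.096) in input. Scap, the escort of both factors, lay at 0.0027 and -0.029, with group means of 2714 ± 39.6 (SD) in Input PBS and 2421 ± 124 in Positive LPS. Insig1, itself raised by SREBP, lay at -0.22 (adjusted p 0.203, SE 0.14) in the positive fraction and 0.0044 (adjusted p 0.988, SE 0.14) in input. In 1 of the 31 alternatives, without animals 270 and 271, Insig1 was called lower in the positive fraction, at -0.36 (adjusted p 0.0238). That alternative was chosen after seeing the data. Insig2 lay at -0.11 and -0.073.

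Among the efflux genes Abca1 rose in both fractions. Abca1 (chr4:53030789-53159895, gene ID 11303), the transporter that loads cholesterol and phospholipid on lipid-poor apolipoproteins, lay at 2572, 1763, 1707 and 2697 in Positive PBS and at 3768, 3719, 3461, 3823 and 3641 in Positive LPS. The LPS values lay close together and all above the PBS values, which fell into a lower pair (males 272 and 273) and a higher pair (females 268 and 506). In input the values were 1791, 1113, 1358 and 1853 with PBS and 2273, 1935, 2626 and 2122 with LPS, with the same pairs in PBS and no overlap. Abca1 rose 1.69-fold in the positive fraction (log2 0.75 (adjusted p 0.00076, SE 0.15)) and 1.46-fold in input (log2 0.55 (adjusted p 0.0273, SE 0.16)). With female animals only, the log2 fold changes were 0.48 (adjusted p 0.00549) and 0.36 (adjusted p 0.0785), and the second was no longer called. The input call was also lost in 4 of the 17 fits with 1 library left out (Input LPS 266 or 270, Input PBS 272 or 273), which gave 0.42 to 0.54.

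Abcg1 passes cholesterol on to lipidated particles. It lay at 4274, 4156, 4279.9 and 4454 in Positive PBS and at 4233, 5266, 5791, 5713 and 4974 in Positive LPS, where animal 266 lay among the PBS animals. Its log2 fold change in the positive fraction was 0.28 (adjusted p 0.0115, SE 0.081), which passed the adjusted p but not the threshold of 0.32, and in input 0.24 (adjusted p 0.0682, SE 0.086), with no overlap of the groups. The LXR genes were not called, with Nr1h2 (LXR beta) at 0.15 (adjusted p 0.187, SE 0.092) in the positive fraction and -0.20 (adjusted p 0.175, SE 0.096) in input. Nr1h3 (LXR alpha), the gene with the lowest level among the LXR and efflux genes, varied by animal. It lay at 160, 186, 78.9 and 171 in Input LPS and at 179, 154, 73.4, 55.2 and 164 in Positive LPS, low in both libraries of animal 270 and in animal 271. In PBS the values were 159.6, 169, 168 and 191 in input and 154, 129, 165 and 86.7 in the positive fraction, so that the SE of its fold in the positive fraction was 0.31.

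Uptake was represented by Mylip, the E3 ligase, raised by LXR, that sends lipoprotein receptors for degradation. Its values in the positive fraction were 2028, 1855, 1590.3 and 1876 with PBS and 1370, 1852, 1295, 1190.4 and 1739 with LPS, which overlapped. The log2 fold change was -0.30 (adjusted p 0.0576, SE 0.12) in the positive fraction and -0.064 (adjusted p 0.802, SE 0.13) in input, and neither was called. With female animals only, the positive fraction gave -0.48 (adjusted p 0.029), which was called.

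Of the 4 genes of sterol handling, 3 rose in the positive fraction. Ch25h (chr19:34473784-34475135, gene ID 12642), the hydroxylase that turns cholesterol into an oxysterol and is known to be induced in macrophages by LPS and interferon, had the largest change of the 31 genes. It lay at 58.8, 47.6, 79.6 and 62.4 in Positive PBS and at 1255, 666, 235, 799 and 639 in Positive LPS, all above the PBS values but spread over a 5.33-fold range with animal 270 lowest and animal 266 highest. In input it lay at 65.5, 35.1, 37 and 32.2 with PBS and at 287, 219.6, 123 and 261 with LPS, where animal 270 was lowest again. The rise was 11.6-fold in the positive fraction (log2 3.54 (adjusted p 1.58e-06, SE 0.39)) and 5.21-fold in input (log2 2.38 (adjusted p 0.000444, SE 0.40)).

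Lpcat3 (chr6:124663104-124704716), an LXR target that puts polyunsaturated fatty acids into membrane phospholipids, lay at 881, 839, 703 and 876 in Positive PBS and at 1004, 1221, 1218, 1255 and 1439.7 in Positive LPS, without overlap. In input the values were 469, 473, 399 and 448 with PBS and 494, 500.2, 491 and 491 with LPS, which also did not overlap but differed by little. Lpcat3 rose in the positive fraction, at 0.57 (adjusted p 0.000181, SE 0.10), and lay at 0.14 (adjusted p 0.41, SE 0.11) in input, where it was not called. Soat1 (chr1:156428108-156474328) esterifies cholesterol for storage in lipid droplets. It lay at 826, 641, 629 and 999 in Positive PBS and at 1358, 1306, 805, 895 and 1523 in Positive LPS. Of the LPS animals, 266, 267 and 507 lay above all PBS animals, while 270 and 271 lay within their range.

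In input Soat1 lay at 696, 676, 619 and 627 with PBS and 672, 585, 334 and 639.9 with LPS, with animal 270 far below the others. Soat1 rose in the positive fraction, at 0.60 (adjusted p 0.0263, SE 0.21), and was at -0.23 (adjusted p 0.528, SE 0.22) in input. The rise was lost in 4 of the 17 fits with 1 library left out, with female animals only, without animal 272 and with the deposited log2 values. Over the 31 alternatives its log2 fold change ran from 0.33 to 0.86, and its adjusted p reached 0.468. The value of 0.86 (adjusted p 0.000115) was that without animals 270 and 271, which held the lowest Positive LPS values and were picked after seeing the data. Stard4, a carrier of cholesterol between membranes, was not called, at -0.28 (adjusted p 0.0846, SE 0.13) in the positive fraction and -0.0044 (adjusted p 0.987, SE 0.13) in input.

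**Figure D3:**
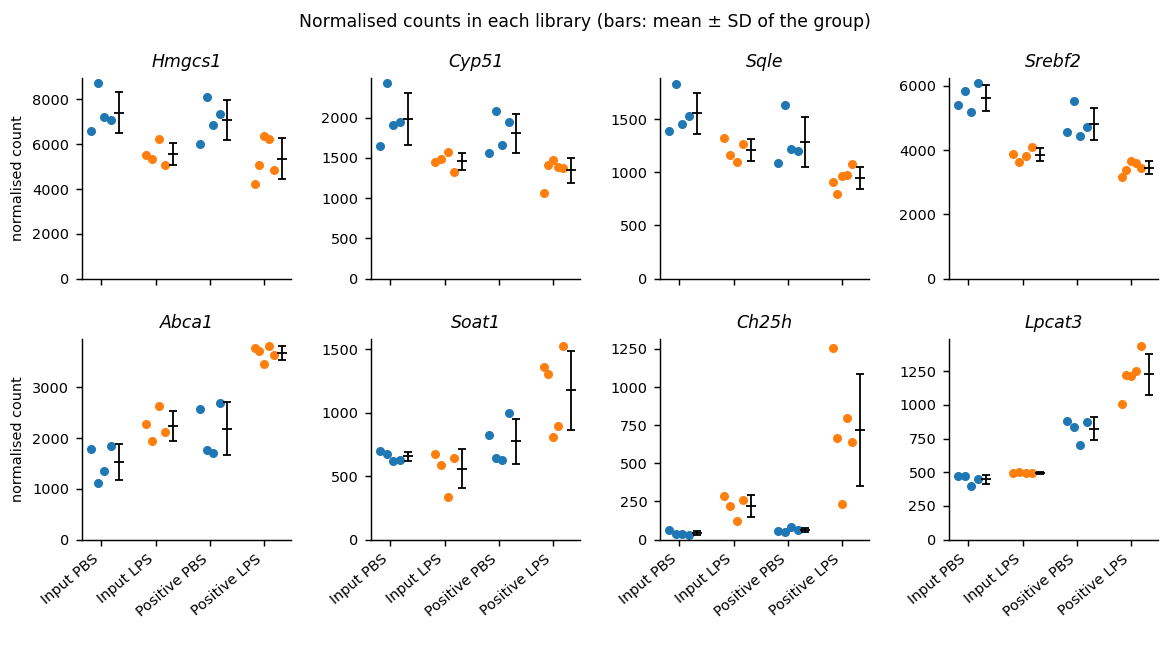
Normalised counts of 8 genes in each library, by group (blue PBS, orange LPS), with the mean ± SD of the group as a black bar beside the points. Hmgcs1, Cyp51, Sqle and Srebf2 are lower with LPS in both fractions, Abca1 and Ch25h higher, and Soat1 and Lpcat3 are higher with LPS in the positive fraction, where both were called. In input the mean of Soat1 is lower with LPS and neither gene was called.

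Neutrophil markers also differed between the groups. Of the 7 listed, 5 were tested and all 5 were higher with LPS in both fractions, and Ly6g was at 0 in all libraries. Their summed level was 28.8 to 138.6 in Positive PBS and 317.5 to 965.1 in Positive LPS, with animal 270 lowest and animal 266 highest among the LPS libraries, as for Ch25h. The border macrophage markers summed to 3525 to 7465 in Positive PBS and 2568 to 3590 in Positive LPS, with 4 of 6 lower. The microglia markers summed to 182200 to 224800 and 152800 to 211700, with 2 of 8 higher and 3 lower. Monocyte markers (2 of the 5 tested) and neuron markers (4 of the 6) were also lower there, and the astrocyte and the endothelial list had 1 gene higher and 1 lower each. In input 0 monocyte and 0 neuron markers were called, and the astrocyte and the endothelial list had 2 genes higher and 1 lower each. In the positive fraction all 6 neuron markers lay below 0 with LPS (median -0.38). Hmgcs1, Cyp51 and Srebf2, which fell in that fraction, were not enriched by TRAP in PBS animals (log2 -0.065, -0.13 and -0.23). The part of all these cell types in the rises of Ch25h, Abca1, Soat1 and Lpcat3 was not tested. Nor was their part in the falls of Hmgcs1, Cyp51, Srebf2 and Sqle in the positive fraction.

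Whether LPS acted differently in the 2 fractions was asked of the difference between the LPS effects (positive fraction minus input). In the fit without the animal as a term, none of the 31 genes was called by edgeR, against 6.88% of all genes, while 8 had an unadjusted p under 0.05 (Mvd, Nsdhl, Ebp, Pmvk, Nr1h2, Soat1, Ch25h and Lpcat3), against 19.6% of all genes. DESeq2 called 3 (Mvd, Nsdhl and Ebp) and limma with a trend called 0. Both fractions were kept for 8 of the 9 animals, so the fit with the animal as a block is the paired one. Animal 271, left with its positive library alone, adds nothing to the difference in that fit. It called 6 of the 31 genes, all with a log2 fold change higher in the positive fraction than in input, and 12.9% of all genes. The 6 were Soat1 at 0.95 (adjusted p 0.00096), Mvd at 0.61 (adjusted p 0.00426), Ebp at 0.63 (adjusted p 0.00657), Nr1h2 at 0.40 (adjusted p 0.0134), Nsdhl at 0.42 (adjusted p 0.0314) and Lpcat3 at 0.42 (adjusted p 0.0363). A higher value need not be a larger response. Mvd and Nsdhl were called lower in input (-0.46 and -0.43) and not called in the positive fraction (0.16 and 0.00074). Nr1h2 was called in neither fraction, and Soat1, Ebp and Lpcat3 were called higher in the positive fraction. For Hmgcs1, Cyp51 and Srebf2 the differences without the block were 0.012 (adjusted p 0.981, SE 0.17), 0.013 (adjusted p 0.979, SE 0.17) and 0.064 (adjusted p 0.812, SE 0.11), and for Ch25h 1.16 (adjusted p 0.247, SE 0.54). Sqle, Lss and Dhcr7 had an LPS effect called in 1 fraction only. Their differences without the block were -0.087 (adjusted p 0.84, SE 0.17), 0.15 (adjusted p 0.788, SE 0.24) and 0.24 (adjusted p 0.413, SE 0.15), so a difference between the fractions was not shown for them.

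The comparison of the positive fraction with input asked where these genes were expressed more. In PBS animals 7 of the 31 genes were called (5 higher in the positive fraction, 2 lower), against 39.9% of all genes (21.1% higher, 18.8% lower). In LPS animals 16 were called (12 higher, 4 lower), against 53.5% of all genes (27.7% higher, 25.8% lower). With the scaling from all 18 libraries, which moved the median of all genes in the PBS comparison by -0.13, 4 genes were called higher and 8 lower in PBS animals, and 10 higher and 5 lower in LPS animals. Over all genes that scaling gave 2226 calls higher and 3699 lower in PBS animals instead of 3121 and 2776, and 3411 and 4499 in LPS animals instead of 4093 and 3816.

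Mylip had the largest enrichment of the 31 genes in PBS animals, with 473 ± 62.9 normalised counts (SD, n = 4) in Input PBS and 1837 ± 182 in Positive PBS. Its log2 enrichment was 1.96 (adjusted p 1.33e-09, SE 0.14) in PBS and 1.72 (adjusted p 3.15e-09, SE 0.13) in LPS animals, and within single animals it ran from 1.78 to 2.22 and from 1.54 to 1.95. In LPS animals Ch25h lay beside it, at 1.69 (adjusted p 0.000422, SE 0.35), a difference smaller than the SE, so that their order was not resolved. Lpcat3 was the next after Mylip in PBS animals, at 0.88 (adjusted p 2.21e-06, SE 0.11), and lay at 1.31 (adjusted p 4.13e-09, SE 0.10) in LPS animals. The efflux genes Abca1 and Abcg1 were higher in the positive fraction of each of the 8 animals with both fractions, at 0.51 and 0.57 in PBS and 0.72 and 0.60 in LPS animals. Of these, Abca1 in PBS animals lost its call with the scaling from all 18 libraries, at 0.39 (adjusted p 0.0804). Endothelial and border macrophage markers were higher in the positive fraction too, and their part in these enrichments was not tested.

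Among the synthesis enzymes, Ebp was the one higher in the positive fraction in both treatments, at 0.55 (adjusted p 0.00315, SE 0.14) in PBS and 1.14 (adjusted p 8.25e-07, SE 0.13) in LPS animals, and Sc5d was lower in both, at -0.48 (adjusted p 0.000929, SE 0.10) and -0.42 (adjusted p 0.00102, SE 0.097). The other 15 enzymes were not called in PBS animals. Of the 31 alternatives, Hsd17b7 was called lower in 6, among them the animal as a block, at -0.34 (adjusted p 0.00482), as were Sqle in 3 and Msmo1 in 2, and Fdps was called higher in 1. In LPS animals Mvd (0.56), Pmvk (0.48), Fdps (0.39) and Nsdhl (0.36) were also higher in the positive fraction and Sqle (-0.36) lower. Of the sensing genes, Srebf1 was lower in the positive fraction in PBS animals, at -0.47 (adjusted p 0.000666, SE 0.096), and Insig1 in LPS animals, at -0.51 (adjusted p 0.00344, SE 0.13). Soat1 was called higher in LPS animals, at 1.08, as was Ch25h, and in PBS animals they lay at 0.24 and 0.53. Nr1h2 was higher and Stard4 lower in LPS animals, at 0.51 and -0.53.

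**Figure D4:**
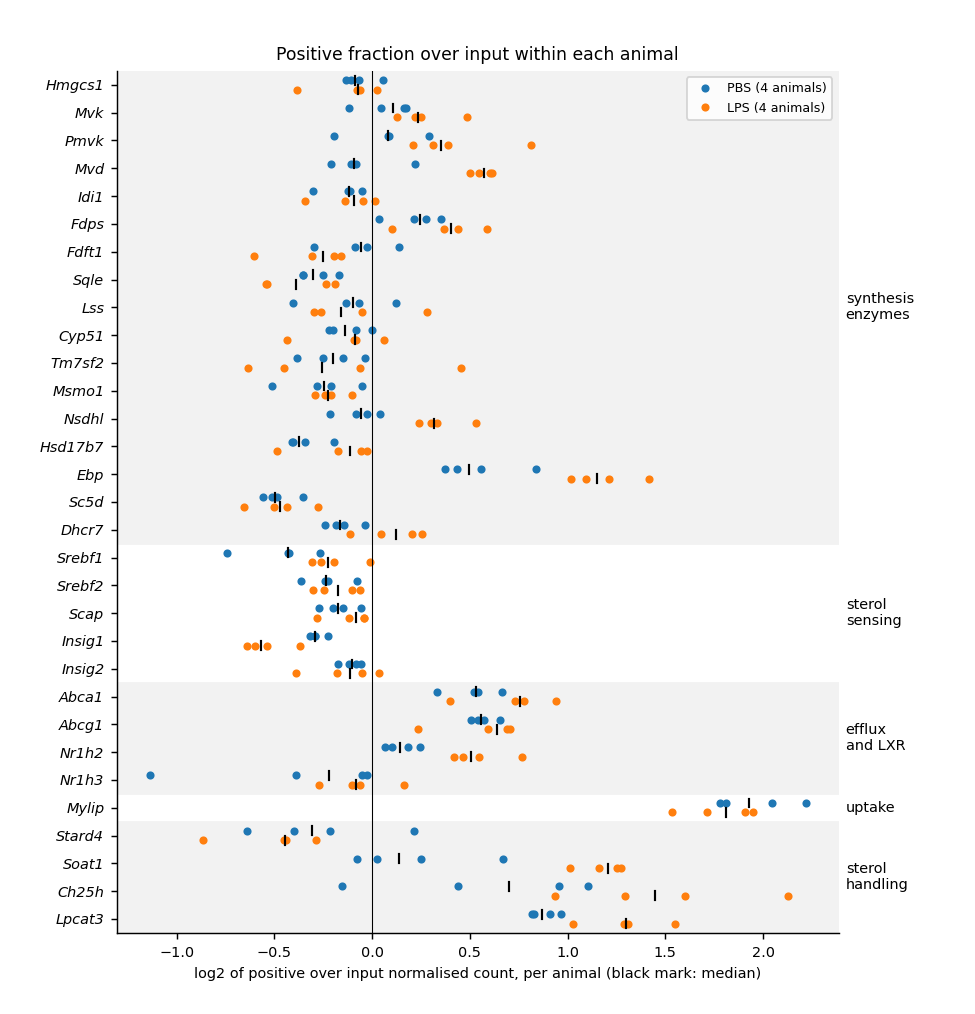
Log2 of the normalised count in the positive fraction over that in input of the same animal, for each of the 31 genes, in 4 PBS animals (blue) and 4 LPS animals (orange), with the median as a black mark. By its median Mylip lies farthest to the right in both treatments, though the highest single LPS value is that of Ch25h. Mylip, Ebp, Lpcat3, Abca1, Abcg1, Fdps and Nr1h2 lie above 0 in all 8 animals. Sc5d, Sqle, Msmo1, Hsd17b7, Srebf1, Srebf2, Scap and Insig1 lie below 0 in all 8.

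Per kilobase of exon (GENCODE M21), Hmgcs1 had the highest level of the 31 genes in each group, 2128 ± 265 normalised counts per kilobase (SD, n = 4) in Input PBS and 1538 ± 264 (n = 5) in Positive LPS. In Input PBS it was followed by Srebf2 at 1109 ± 80.9 and Insig1 at 1086 ± 135 per kilobase, a difference smaller than their SDs. Ch25h was the lowest per kilobase in Input PBS (30.6 ± 11.2), with Soat1 (78.1 ± 4.45) and Nr1h3 (79.9 ± 6.2) next. In Positive LPS Ch25h reached 518 ± 264 per kilobase, above Abca1 (359 ± 13.7) by less than its own SD, and Nr1h3 was the lowest (58.1 ± 26.3).

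The wider pathway was read from 52 genes in 7 lists. In the positive fraction 5 of them rose and 9 fell with LPS, and in input 3 rose and 4 fell. The shares called, 26.9% and 13.5%, were below and near those of all genes (33.8% and 12.4%). The fatty acid targets of SREBP and LXR held most of the falls, with 6 of 9 genes lower after TRAP, 4 of 9 lower in input, and 0 higher in either, against 14.9% and 5.26% of all genes lower. Pltp, an LXR target that transfers phospholipids between lipoproteins, had the largest fall of the lists. It dropped from 2204 ± 182 (SD, n = 4) to 439 ± 34.2 (n = 5) after TRAP and from 1395 ± 116 to 684 ± 27.8 in input, at log2 -2.33 (adjusted p 1.11e-12, SE 0.083) and -1.03 (adjusted p 2.41e-07, SE 0.086). Next in size were Cyp27a1, a sterol hydroxylase, in the positive fraction (-0.87 (adjusted p 0.00133, SE 0.19)) and Fads2, a fatty acid desaturase, in input (-0.69 (adjusted p 0.000169, SE 0.11)).

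Tspo, a cholesterol-binding protein of the outer mitochondrial membrane that is used as a marker of glial activation, had the largest rise, 1.83 (adjusted p 5.2e-07, SE 0.19) in the positive fraction and 1.29 (adjusted p 0.000223, SE 0.20) in input. It was followed by Hsd3b7, which acts on oxysterols on the way to bile acids, in the positive fraction (0.66 (adjusted p 0.000896, SE 0.14)) and by the oxysterol hydroxylase Cyp7b1 in input (0.63 (adjusted p 0.00591, SE 0.14)). Of the lists for SREBP processing (6 genes), LXR partners (5), synthesis feed and branches (8), lipoprotein uptake (7), sterol transport and ester turnover (12) and oxysterol enzymes (5), those with called genes in the positive fraction were processing (1 higher, 16.7%), uptake (1 higher and 2 lower, 42.9%), transport (2 higher, 16.7%) and oxysterol enzymes (1 higher and 1 lower, 40%). In input, transport had 1 higher (8.33%) and the oxysterol enzymes 2 higher (40%).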

How the data were processed

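RNA of 18 libraries (9 animals, input and positive fraction) was sequenced. The authors trimmed and aligned reads by strand to Mm10 in Strand NGS and deposited estimated counts per RefSeq gene, of which 81.7% of nonzero values were not whole, and log2 values after DESeq normalization, expressed against the median of Input PBS. Counts were rounded and fitted with edgeR 4.0.16 (glmQLFit and glmQLFTest, R 4.3.3), with 1 mean per group, over 17 libraries. Size factors were medians of ratios (0.766 to 1.32). The filter kept a gene (14796 of 36172) if every library of some group exceeded 20 normalised counts. The authors' own comparisons used two-way ANOVA, replaced here by a count model. Calls needed a Benjamini-Hochberg adjusted p under 0.05 and a log2 fold change beyond 0.322. Log2 fold changes are edgeR's fitted values. The detection limit, set at 3 counts, covers counting error only.

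Members and lists were chosen with earlier results of these data known, as was the rule for named genes: all 31 members, with values in every library for those called in an LPS effect, and the 2 largest rises and falls among the other lists. Pairing comes from the labels: in 8 animals with both fractions, deviations from group means correlated at 0.162 to 0.519. For 7 of them the input library correlated best with the positive library of the same animal. For animal 506, at 0.162, it did not. Alternatives were DESeq2 1.42.0, limma 3.58.1 (log2 CPM with a trend, and the deposited log2 values), TMM, no filter, animal as a block, each library left out, all 18 libraries, subsets of animals and sex as a covariate. Of the oligodendrocyte markers 1 is not reported here, and the list was counted and summed without it. Functions were tested on simulated data. Promoter windows are RefSeq's. Stard4, Abcg1, Fdft1, Fdps and Sqle had no window in the table used here.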

Additional observations from a re-analysis of the deposited data

Results flagged for a closer look

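Of 124 groups of values (31 genes in 4 groups), 7 held a library whose gap to its nearest neighbour was large against the range of the group by Dixon's criterion. Chance flags about 1 in 20 groups. Fdft1 in Input PBS animal 272 lay at 3124 normalised counts, with the others from 2236 to 2338. Fdps in Input LPS animal 267 lay at 1244, with the others from 1081 to 1106. Cyp51 in Positive LPS animal 266 lay at 1069, with the others from 1376 to 1476, and the fold of Cyp51 kept its call without this library. Tm7sf2 in Input LPS animal 266 lay at 270.8, with the others from 340.5 to 345.6, and Stard4 in the same library lay at 592.1, with the others from 455.5 to 468.4. Scap in Input PBS animal 506 lay at 2655, with the others from 2730 to 2739, a difference that is small against its level. Ch25h in Input PBS animal 268 lay at 65.5, with the others from 32.2 to 37. No explanation was tested for these values.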

How the results depend on the processing

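Of the log2 fold changes of called genes, 0 reversed under any of 31 alternatives. In the LPS effect in the positive fraction 278 of 310 such values kept their call, in input 209 of 248, in positive over input 211 of 217 with PBS and 485 of 496 with LPS. Of the LPS effects, those of Srebf2, Abca1, Ch25h and Lpcat3 in the positive fraction and of Srebf2 in input kept their call in every alternative run, as did 3 of 7 called genes in positive over input with PBS and 12 of 16 with LPS. With 1 library left out, the members called ran from 5 (without Positive PBS animal 272) to 10 in the positive fraction, from 4 (without Input PBS animal 272) to 9 in input, from 6 to 9 and from 15 to 18 in positive over input with PBS and with LPS, and from 0 to 3 in the difference. All genes called ran from 4434 to 5121, 1453 to 1978, 5299 to 6060, 7448 to 8133 and 749 to 1260 in the same order.

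With female animals only, 5 members were called in the positive fraction and 1 in input, with 742 genes in input and 77 in the difference. Without the animals numbered in the 500s, a group the labels do not describe, 3 members were called in input, with 1078 genes in input and 323 in the difference. Without animal 272, an alternative chosen after seeing the data, 6 members were called in the positive fraction and 4 in input, with 555 genes in the difference. Without animals 270 and 271, also chosen after seeing the data, 12 members were called in the positive fraction (5 higher, 7 lower) and 2 in the difference (Ebp and Soat1).

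For the difference of the LPS effect, 6 members and 1916 genes were called with the replicate block, 3 members with DESeq2, 2 with sex as a covariate, 2 with the deposited log2 values and 1 with all 18 libraries. The replicate block otherwise changed the calls of Sqle in input and Hsd17b7 in positive over input with PBS, which became called. Scaling from all 18 libraries and the deposited log2 values, which share it, each called 12 members in positive over input with PBS, and moved the median of all genes there by -0.128 and -0.129. The cause of these differences was not tested. With library totals from 22968939 counts up, the lowest value of a member, 32.2 for Ch25h, was above the limit of 3 counts. That limit was set in advance and does not show whether depth affected precision at low counts. Ch25h and Nr1h3 had SEs of 0.40 and 0.32 for the LPS effect in input. Each group held 4 or 5 animals.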
